A study of Mus musculus with 29 samples.

Results

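Malat1, Neat1, Meg3, Rian, Mirg and Miat form a group of long noncoding RNAs known for their place in the nucleus. They were taken by name from the count tables, in which all 6 were found among 48709 Ensembl gene identifiers, and all 6 had enough reads to be tested beside 20078 genes. The libraries came from the cortex of mouse embryos at E16.5 (embryonic day), exposed to vehicle or to TSA, an inhibitor of histone deacetylases, with nuclei sorted by flow cytometry into a fraction with and a fraction without Tbr2, the protein made by Eomes. The sources used here do not give the dose, route or duration of the exposure. RNA was sequenced from 3 Tbr2+ vehicle, 2 Tbr2+ TSA, 3 Tbr2- vehicle and 2 Tbr2- TSA libraries. H3K9ac, an acetylated histone mark found at active gene starts, was mapped by chromatin immunoprecipitation in 3 Tbr2+ vehicle libraries and in 4 libraries of each of the other groups.

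Malat1 is an abundant RNA of nuclear speckles, the bodies that store splicing factors, and Neat1 is the RNA scaffold around which paraspeckles form. Their genes are neighbours. Meg3, Rian and Mirg lie in that order in the imprinted Dlk1-Dio3 cluster, where the noncoding RNAs are made from the maternal chromosome and the protein genes Dlk1, Rtl1 and Dio3 from the paternal one; Rian carries small nucleolar RNAs and Mirg carries microRNAs. Miat, also called Gomafu, is a neuronal RNA that binds splicing factors. Tbr2 marks the basal progenitors that divide to give cortical neurons, so the Tbr2- fraction holds neurons together with the other cell types of the cortex.

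The RNA libraries held 18567111 to 26282652 counts, and the 6 RNAs together took 0.464% to 1.33% of them. Eomes stood at 410, 371 and 548 CPM in the Tbr2+ vehicle libraries, where CPM is the read count scaled to a common library total, against 22.0, 13.9 and 18.2 CPM in the Tbr2- vehicle ones; on the log2 scale the fitted difference was 4.62 ± 0.26 (SE), at an adjusted p of 1.05e-06. The protocol text of the RNA samples names extraction from whole tissue while the series describes sorted nuclei, and the level of Eomes differed between the fractions as the sort labels say. Summed over 83 ribosomal protein genes, the vehicle libraries held 7467 to 12554 CPM and the TSA libraries 15106 to 20165 CPM, and mitochondrial transcripts took 0.0979% to 0.306% and 0.306% to 0.445% of the reads. These sums moved with the treatment, and their part in the TSA results below was not tested. No source says that replicates are separate animals, so the spread behind each p-value is that among these samples and may be technical. In bulk libraries such as these, fewer cells of a type and less RNA per cell cannot be told apart.

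The genes lie on 3 chromosomes of the mouse assembly GRCm38 (mm10). Malat1 (ENSMUSG00000092341) spans chr19:5795690-5802672 on the minus strand, and Neat1 (ENSMUSG00000092274) lies beside it at chr19:5824708-5845480. Meg3 (ENSMUSG00000021268) spans chr12:109540996-109571729, Rian (ENSMUSG00000097451) chr12:109603945-109661716 and Mirg (ENSMUSG00000097391) chr12:109734981-109749458, all on the plus strand. Miat (ENSMUSG00000097767) spans chr5:112213228-112228948 on the minus strand. All are annotated as lncRNA genes, and the library kit was unstranded, which means that reads of overlapping transcripts on the other strand cannot be separated from theirs. RefSeq places 10 microRNA hairpins inside Mirg, 3 inside Rian and 1 inside Meg3; mature microRNAs were not measured here.

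The start regions below, 250 bases before to 50 after each RefSeq start in GRCm38.p6, are shown because their H3K9ac differed: Malat1 and Miat carried peaks near the start in every library, the first Meg3 start mainly in Tbr2- libraries, and Rian in none. The table held starts for 5 of the 6 genes, and that of Neat1 was not among them. Capitals mark matches on either strand to any of 6 motifs. They are the TATA box TATAAA, the CCAAT box, the GC box with letters GGGCGG, the core of the cyclic AMP response element spelled TGACGT, the E-box written CACGTG, and the T-box motif with letters GGTGTGA, the kind of sequence that Tbr2 and its relatives bind.
Malat1, chr19:5802623-5802922, minus strand: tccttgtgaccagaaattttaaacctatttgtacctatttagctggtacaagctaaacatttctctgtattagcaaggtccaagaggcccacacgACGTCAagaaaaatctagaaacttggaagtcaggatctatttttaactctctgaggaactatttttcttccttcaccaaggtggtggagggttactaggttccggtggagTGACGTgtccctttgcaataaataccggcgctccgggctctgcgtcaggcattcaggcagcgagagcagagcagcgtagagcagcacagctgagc
Meg3, first start, chr12:109540746-109541045, plus strand: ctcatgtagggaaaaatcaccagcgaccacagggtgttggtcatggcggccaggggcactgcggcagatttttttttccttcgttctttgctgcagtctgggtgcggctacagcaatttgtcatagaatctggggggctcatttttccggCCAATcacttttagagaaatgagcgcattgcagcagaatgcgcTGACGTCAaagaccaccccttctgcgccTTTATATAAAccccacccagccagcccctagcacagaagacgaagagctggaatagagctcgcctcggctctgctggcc
Meg3, second start, chr12:109545148-109545447, plus strand: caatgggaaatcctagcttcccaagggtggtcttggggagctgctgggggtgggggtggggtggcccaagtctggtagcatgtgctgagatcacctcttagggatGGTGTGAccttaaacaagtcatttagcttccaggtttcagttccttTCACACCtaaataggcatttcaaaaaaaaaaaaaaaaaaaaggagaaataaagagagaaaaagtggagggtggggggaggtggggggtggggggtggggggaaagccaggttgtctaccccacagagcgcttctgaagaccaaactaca
Rian, chr12:109603695-109603994, plus strand: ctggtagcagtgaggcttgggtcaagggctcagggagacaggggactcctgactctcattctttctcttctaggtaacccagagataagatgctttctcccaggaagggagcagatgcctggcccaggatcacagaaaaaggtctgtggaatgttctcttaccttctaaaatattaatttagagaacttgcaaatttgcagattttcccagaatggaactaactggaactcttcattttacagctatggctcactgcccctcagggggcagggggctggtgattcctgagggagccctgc
Miat, chr5:112228899-112229198, minus strand: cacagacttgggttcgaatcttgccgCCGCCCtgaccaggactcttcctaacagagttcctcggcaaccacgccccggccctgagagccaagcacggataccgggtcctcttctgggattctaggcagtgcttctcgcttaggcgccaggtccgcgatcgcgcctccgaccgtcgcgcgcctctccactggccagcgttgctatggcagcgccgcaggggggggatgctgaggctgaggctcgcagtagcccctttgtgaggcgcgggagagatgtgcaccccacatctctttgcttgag
The first Meg3 start had TATAAA beginning 25 bases before it, overlapped by a match on the opposite strand, with CCAAT 100 bases before it and TGACGT on both strands in overlapping letters 57 and 55 bases before it. Of 32851 mouse start regions of the same length, 13.6% held TATAAA, 37.4% CCAAT and 7.51% TGACGT. Malat1 held TGACGT 45 bases before its start and, on the opposite strand, 155 bases before it. The second Meg3 start held GGTGTGA on each strand, a motif found in 3.98% of start regions, and the Miat region held 1 GC box, found in 35.7%. CACGTG, found in 7.15%, matched none of the windows shown. The Miat region had 25 CpG dinucleotides, more than 81.6% of start regions, the first Meg3 start 13, the Malat1 start 10, the second Meg3 start 1 and the Rian start 0, beside a median of 7. A match describes the letters in these windows and is not a measured binding site.

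**Figure D1:**
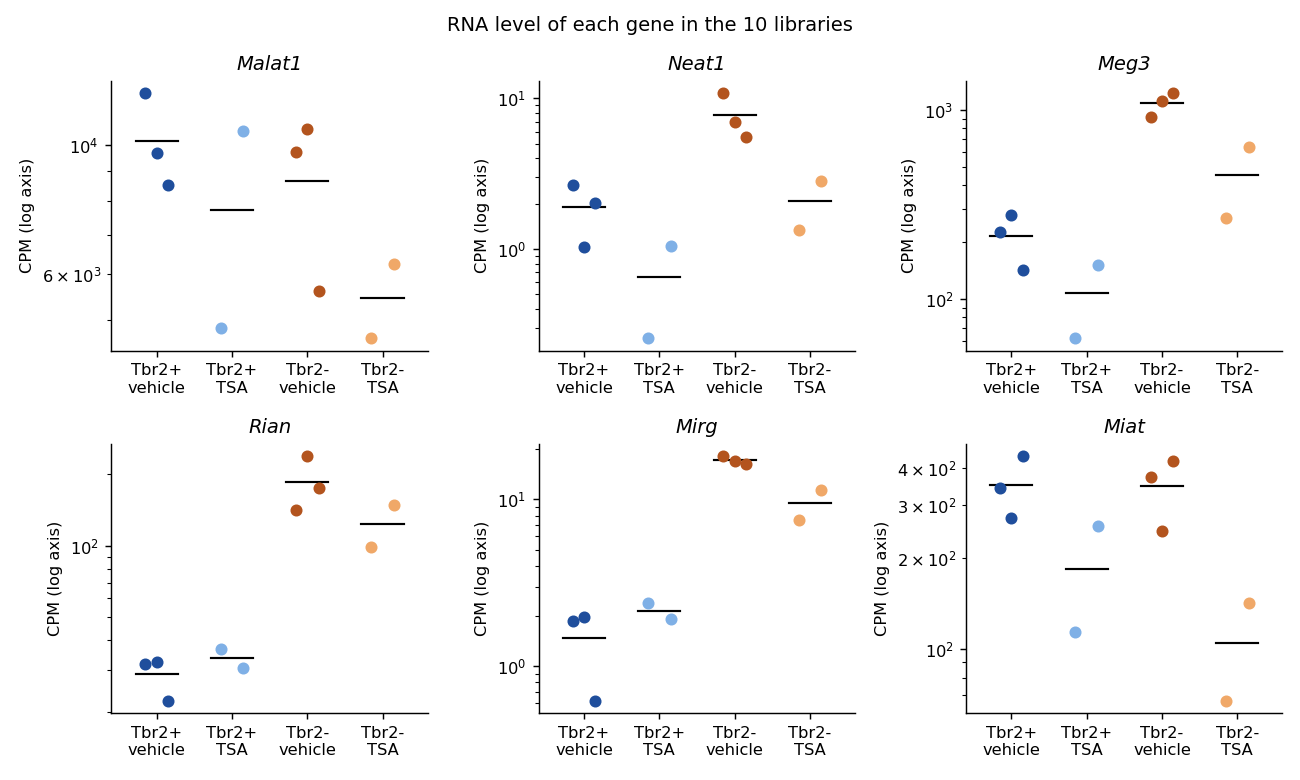
RNA level of each gene in CPM on a log axis, 1 point per library and a line at the group mean, for the 4 groups of 2 or 3 libraries. Within each treatment Neat1, Meg3, Rian and Mirg lie lower in every Tbr2+ library than in any Tbr2- library, while Malat1 and Miat overlap between the fractions.

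In vehicle, 4 of the 6 RNAs were lower in Tbr2+ than in Tbr2- nuclei: the 3 noncoding RNAs of the Dlk1-Dio3 cluster and Neat1. Over all genes tested 11.5% were called lower and 9.96% higher in this comparison, and the libraries of the 2 fractions did not overlap for 21.3% in the lower and 18.4% in the higher direction. Malat1 and Miat did not pass the test.

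Meg3, the first noncoding RNA of the cluster, stood at 225, 279 and 143 CPM in the Tbr2+ vehicle libraries and at 923, 1125 and 1229 CPM in the Tbr2- ones. Every Tbr2- library exceeded every Tbr2+ library. The means were 216 ± 68.8 and 1092 ± 156 CPM (SD, n = 3 each), a 5.06-fold difference or -2.34 ± 0.37 on the log2 scale (SE), at an adjusted p of 0.000611. Rian, the snoRNA host downstream of Meg3, stood at 31.9, 32.5 and 22.1 CPM in the Tbr2+ and at 142, 239 and 175 CPM in the Tbr2- vehicle libraries. It was 6.42-fold lower in Tbr2+ nuclei, a log2 fold change of -2.68 ± 0.24 (adjusted p = 1.21e-05), again with no overlap. Mirg, the microRNA host at the far end of the cluster, had only 1.85, 1.98 and 0.616 CPM in the Tbr2+ libraries, or 44, 48 and 14 reads, against 18.2, 17.0 and 16.4 CPM in the Tbr2- ones. Its log2 fold change, -3.53 ± 0.42 (adjusted p = 9.2e-05), was an 11.5-fold difference. Rian and Mirg followed each other closely over the 10 libraries (Pearson r = 0.984 of log2 CPM), and Meg3 followed each of them with r = 0.87; these are descriptions over libraries that share their group structure and carry no test.

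Neat1 was a low transcript, at 2.65, 1.03 and 2.03 CPM (63, 25 and 46 reads) in the Tbr2+ and 10.8, 6.92 and 5.51 CPM in the Tbr2- vehicle libraries. The groups did not overlap. Its log2 fold change of -2.02 ± 0.58 passed the test (adjusted p = 0.0244). The call rested on single libraries: adjusted p was 0.0905 without Tbr2+ vehicle replicate 2, 0.0634 without Tbr2+ vehicle replicate 3 and 0.103 without Tbr2- vehicle replicate 1.

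Malat1 and Miat showed no such difference. Malat1 stood at 12248, 9675 and 8518 CPM in the Tbr2+ and 9724, 10648 and 5618 CPM in the Tbr2- vehicle libraries, and the ranges overlapped. Its log2 fold change was 0.23 ± 0.29 (adjusted p = 0.644). Miat had 344, 272 and 438 CPM in the Tbr2+ and 372, 247 and 421 CPM in the Tbr2- vehicle libraries, a log2 fold change of 0.02 ± 0.32 (adjusted p = 0.978) whose sign turned when 1 library was left out. Missing the threshold does not show that the levels were alike.

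Under TSA the cluster RNAs were again lower in Tbr2+ nuclei, in 3 of 6 RNAs tested beside 5.13% of all genes called lower and 4.19% called higher. Meg3 stood at 61.8 and 152 CPM in the Tbr2+ and 270.0 and 637 CPM in the Tbr2- TSA libraries, a log2 fold change of -2.09 ± 0.45 (adjusted p = 0.0114). Rian stood at 36.6 and 30.7 against 98.5 and 148 CPM, a log2 fold change of -1.87 ± 0.28 (adjusted p = 0.00182). Mirg stood at 2.38 and 1.91 against 7.52 and 11.4 CPM, a log2 fold change of -2.14 ± 0.49 (adjusted p = 0.016). None of the 3 overlapped between the fractions, as was so for 27.3% of all genes in the lower and 23.6% in the higher direction. The call of Rian held without any single library. That of Meg3 was lost without Tbr2+ TSA replicate 1 (adjusted p = 0.083), without Tbr2- TSA replicate 2 (0.112), and also without the filter on low counts (0.123). That of Mirg was lost without Tbr2+ TSA replicate 1 (0.0675), Tbr2+ TSA replicate 2 (0.091) or Tbr2- TSA replicate 2 (0.102).

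Neat1, at 0.255 and 1.05 CPM in the Tbr2+ TSA libraries (6 and 23 reads) and 1.34 and 2.84 CPM in the Tbr2- ones, had a log2 fold change of -1.68 ± 0.74 that did not pass (adjusted p = 0.19). Its libraries did not overlap between the fractions either, again beside 27.3% of all genes in the lower and 23.6% in the higher direction. Malat1 stood at 4858 and 10564 against 4653 and 6251 CPM (log2 fold change 0.50 ± 0.36, adjusted p = 0.448). Miat had 114 and 256 CPM in the Tbr2+ and 66.9 and 142 CPM in the Tbr2- TSA libraries, which overlap, with a log2 fold change of 0.83 ± 0.40 (adjusted p = 0.243). Libraries of the 2 fractions with the same replicate number deviated together, although no source states that they are pairs. With each such assumed pair as a replicate block in edgeR, Miat was higher in Tbr2+ nuclei under TSA by a log2 fold change of 0.81 (adjusted p = 0.00403). Miat was higher in the Tbr2+ library of both assumed pairs. With the replicate numbers crossed, Tbr2+ TSA replicate 1 (114 CPM) lay below Tbr2- TSA replicate 2 (142 CPM). The pairing was taken from these same libraries, so the adjusted p of the blocked fit depends on that choice.

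**Figure D2:**
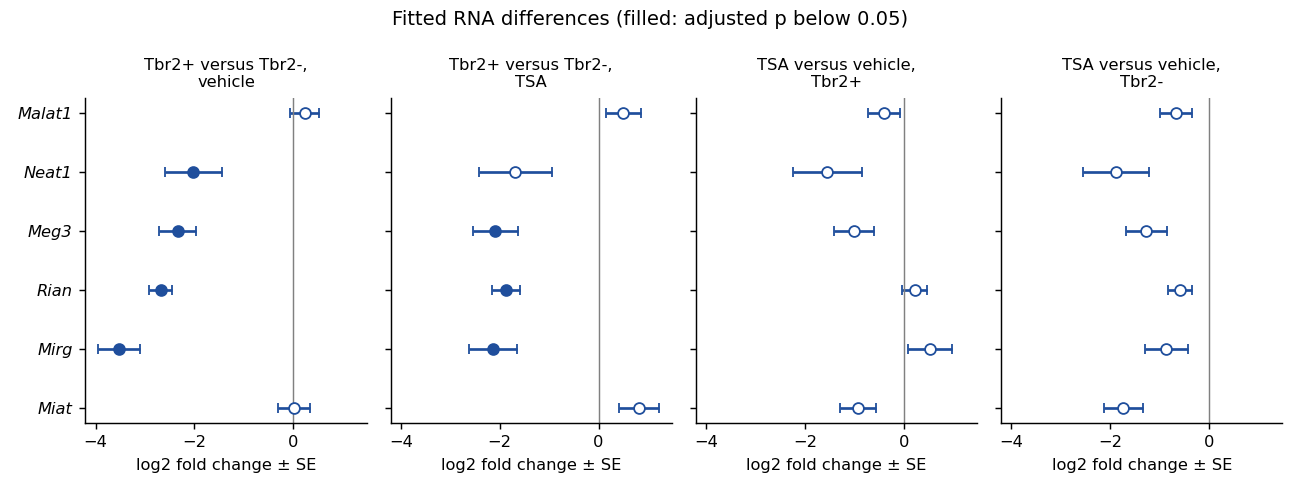
Fitted log2 fold change with its standard error for each gene in 4 comparisons, from 1 fit of all 10 libraries; filled points passed at an adjusted p below 0.05. The filled points are 4 in vehicle and 3 under TSA, all on the Tbr2- side, and there are none in the 2 TSA comparisons.

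Markers of other cell types differed between the fractions in the same libraries. The counts below stand beside 11.5% of all genes called lower and 9.96% higher in vehicle, and 5.13% and 4.19% under TSA. All 12 interneuron markers were lower in Tbr2+ vehicle nuclei, with summed levels of 170 to 334 CPM against 933 to 1147 CPM in Tbr2- nuclei. Of 15 pan-neuronal markers 11 were lower and 2 higher (6058 to 7533 against 10370.4 to 12688 CPM), and 4 of 5 oligodendrocyte precursor markers were lower (6.82 to 12.9 against 38.8 to 55.7 CPM). Of 10 microglial markers 2 were lower (24.7 to 40.5 against 47.8 to 90.1 CPM), while 1 of 10 vascular and meningeal and 0 of 6 erythroid markers passed. All 11 basal progenitor markers were higher (2667 to 3846 against 296 to 471 CPM), as were 11 of 12 S-phase and 11 of 12 G2/M genes. Of 11 radial glia markers 3 were higher and 1 lower, while their summed level was lower (1413 to 1699 against 1871 to 1892 CPM). With TSA 2 of them were higher and 2 lower. Under TSA the interneuron markers summed to 298 to 326 CPM in Tbr2+ and 1706 to 1898 CPM in Tbr2- nuclei, and the pan-neuronal ones to 8223 to 8746 and 13765 to 15226 CPM. The part of these differences in the levels of Meg3, Rian, Mirg and Neat1 was not tested.

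By likeness of log2 CPM over the 10 libraries among 9721 genes, the genes nearest to Meg3 were Pfkp (r = 0.988), Carmil1 (0.977) and Fam13a (0.976). Those nearest to Rian were Gria4 (0.989), Adgrl3 (0.987) and Ptprz1 (0.986), and those nearest to Mirg were Dlk2 (0.997), Dock9 (0.992) and Gria4 (0.99). Gria4 encodes a glutamate receptor subunit and Ptprz1 a receptor phosphatase of radial glia and oligodendrocyte precursors, and Gria4 stood in both lists. Malat1 was nearest to Fam160b2 (0.954), Aasdh (0.935) and Rbm28 (0.928). Neat1 was nearest to Peak1 (0.959), Zfp30 (0.953) and Bbof1 (0.946), and Miat to Tgfbrap1 (0.962), Zfhx2 (0.961) and Pabpn1 (0.96). Among the 6 RNAs, Malat1 was most like Miat (r = 0.66) and Neat1 most like Meg3 (r = 0.882). All these values are over libraries that share their groups, and such likeness says nothing of shared control.

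TSA did not change any of the 6 RNAs by the test, in either fraction. In Tbr2+ nuclei edgeR called 0% of all genes in either direction, with 3175 genes at an unadjusted p below 0.05 and 996 called by DESeq2. In Tbr2- nuclei 0.359% of genes were called lower and 0.817% higher. All 6 fitted differences were negative in Tbr2- nuclei, as were 11095 of all 20078, with a median of -1.06 beside -0.08 over all genes. In Tbr2+ nuclei 4 of 6 were negative, with a median of -0.66 beside -0.04.

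Miat came closest. In Tbr2- nuclei it stood at 372, 247 and 421 CPM in vehicle and 66.9 and 142 CPM under TSA, without overlap, as was so for 21% of all genes in the lower and 19.7% in the higher direction. Its log2 fold change was -1.73 ± 0.39 with an adjusted p of 0.0517. It was called with DESeq2 (adjusted p = 0.00715) and with only these 2 groups in the fit (0.0433), and also without Tbr2+ TSA replicate 1 (0.0393), Tbr2+ TSA replicate 2 (0.045) or Tbr2- vehicle replicate 2 (0.036). In Tbr2+ nuclei Miat went from 344, 272 and 438 CPM to 114 and 256 CPM, also without overlap beside 17.6% of all genes lower and 15.9% higher, with a log2 fold change of -0.93 ± 0.37 (adjusted p = 0.248).

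Meg3 had a log2 fold change of -1.27 ± 0.41 under TSA in Tbr2- nuclei (adjusted p = 0.109), where its groups did not overlap, and of -1.01 ± 0.41 in Tbr2+ nuclei (adjusted p = 0.245), where they did. Neat1 had -1.89 ± 0.67 in Tbr2- nuclei (adjusted p = 0.137 with edgeR and 0.0365 with DESeq2) and -1.55 ± 0.69 in Tbr2+ nuclei (adjusted p = 0.303). Rian and Mirg, the other RNAs of the cluster, had values of opposite sign in the fractions: 0.22 ± 0.25 and 0.53 ± 0.45 in Tbr2+ nuclei, and -0.59 ± 0.25 and -0.86 ± 0.43 in Tbr2- nuclei. Malat1 had -0.40 ± 0.33 in Tbr2+ and -0.67 ± 0.33 in Tbr2- nuclei (adjusted p = 0.598 and 0.279). In Tbr2- nuclei the groups of Neat1 and Mirg, like those of Meg3, did not overlap, while those of Malat1 and Rian did. Such a lack of overlap held there for 21% of all genes in the lower and 19.7% in the higher direction. In each fraction 1 of the 2 TSA libraries was the lower for Malat1, Neat1, Meg3 and Miat together: replicate 1.

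Whether TSA acted differently in the fractions was tested with an interaction term, and none of the 6 passed. edgeR called no gene in this test, with 1103 genes at an unadjusted p below 0.05, while DESeq2 called 12. The difference between the TSA effects was largest for Mirg, at 1.39 ± 0.62 on the log2 scale (SE; adjusted p = 0.895 in edgeR's quasi-likelihood test), followed by Rian at 0.81 ± 0.35 (adjusted p = 0.895). For Miat it was 0.81 ± 0.51, for Neat1 0.34 ± 0.94, for Malat1 0.27 ± 0.46 and for Meg3 0.25 ± 0.55. The signs for Malat1, Neat1 and Meg3 turned when single TSA libraries were left out.

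Genes that work with these RNAs, or lie next to them, were listed by name and read beside them in the vehicle comparison. Over all genes tested 9.96% were called higher and 11.5% lower in this comparison. Of 15 other nuclear or chromatin-bound long noncoding RNAs tested, 4 were higher and 4 lower in Tbr2+ nuclei. Dleu2 was higher (log2 fold change 1.62 ± 0.27), and Dlx6os1, an antisense RNA of the interneuron gene Dlx6 (-2.24 ± 0.23), and Snhg14 of the Prader-Willi region (-1.02 ± 0.15) were lower. Of 9 snoRNA host RNAs none was called. Of 12 paraspeckle proteins, the partners of Neat1, 4 were higher and none lower, among them Nono (0.67 ± 0.15), Hnrnpk (0.72 ± 0.17) and Ewsr1 (0.66 ± 0.16), while Neat1 was lower. Of 12 nuclear speckle proteins 3 were higher, the splicing factors Srsf5 (0.98 ± 0.21), Srsf3 (0.48 ± 0.14) and Srrm1 (0.48 ± 0.14), while Malat1 was not called. Of 2 splicing factors listed as partners of Miat none was called. The lists' medians were -0.16, 0.06, 0.45, 0.34 and 0.09, beside -0.05 over all genes and -2.18 over the 6 RNAs. In the 2 TSA comparisons no gene of these lists was called.

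In the imprinted cluster the protein genes were low and none of the 3 was called. Dlk1, a paternally expressed Notch ligand homologue, stood at 0.572 to 2.40 CPM in the Tbr2+ and 4.79 to 6.2 CPM in the Tbr2- vehicle libraries, a log2 fold change of -1.59 ± 0.54 (adjusted p = 0.054). Beyond the cluster, of 5 flanking genes only Begain, a postsynaptic protein gene next to Dlk1, was called, at -2.11 ± 0.32 in vehicle (adjusted p = 0.000498) and -1.69 ± 0.39 under TSA (adjusted p = 0.0168). Around Malat1 and Neat1, of 7 genes 3 were higher and 1 lower in vehicle: Ltbp3 (2.01 ± 0.35) and Dpf2 (0.77 ± 0.17) were higher and Ehbp1l1 (-0.995 ± 0.286) lower. None of the 6 genes around Miat was called. Of all genes 9.96% were called higher and 11.5% lower in vehicle, and 4.19% higher and 5.13% lower under TSA.

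H3K9ac was read as the number of bases under the deposited peaks within 1 kb of either end of a gene, per library. The peak lists were called separately and are on no shared scale, and no test was run on these values. Groups are compared by whether their ranges overlap, beside the share of all genes for which that holds. The lists held 61487 to 82164 peaks in Tbr2+ vehicle, 31823 to 40053 in Tbr2+ TSA, 56403 to 78773 in Tbr2- vehicle and 47835 to 78929 in Tbr2- TSA libraries, and the part of these totals in the differences below was not tested. Each group had 1 input library of its own, so an effect of the input cannot be told apart from the group. The gene-end H3K9ac of Eomes covered 3427 to 3609 bases in the Tbr2+ and 281 to 1303 bases in the Tbr2- vehicle libraries.

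**Figure D3:**
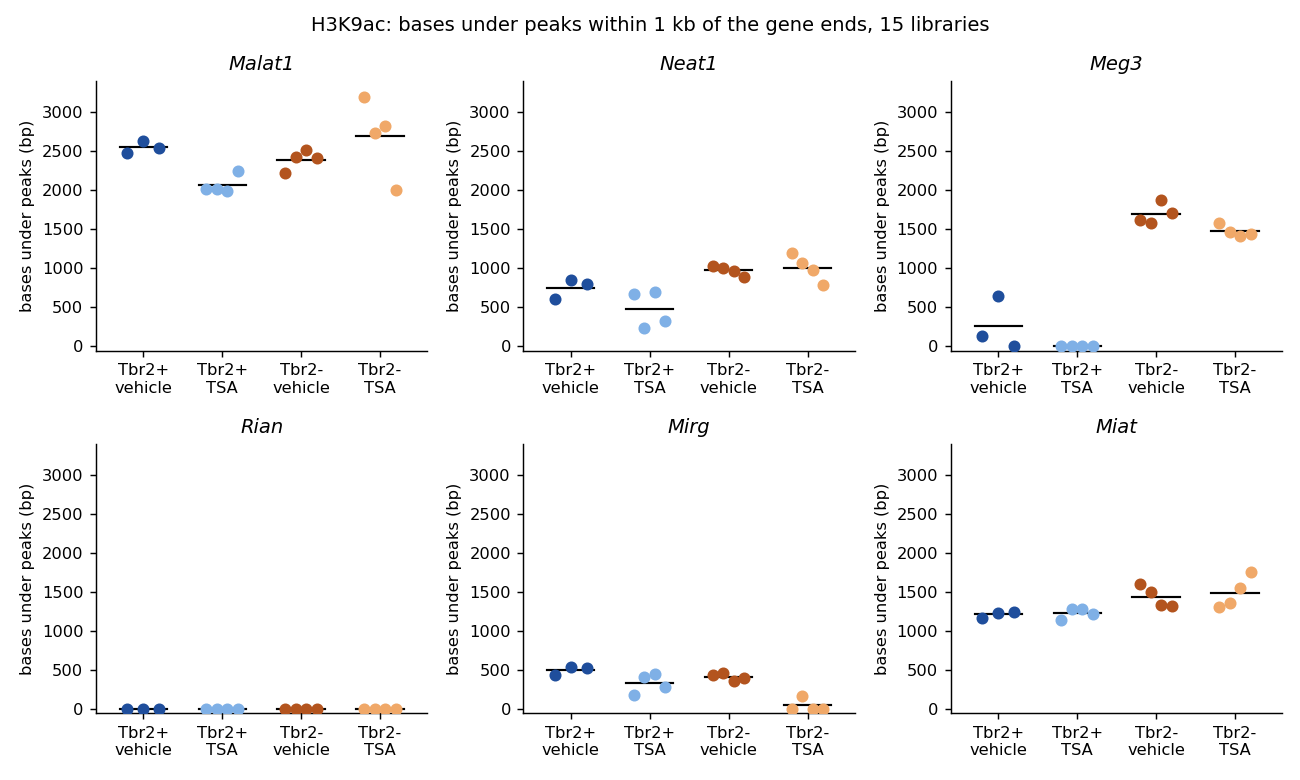
Bases under H3K9ac peaks within 1 kb of the gene ends, 1 point per library and a line at the group mean, for 3 or 4 libraries per group on a common axis. Meg3 lies between 1415 and 1874 bases in the 8 Tbr2- libraries and between 0 and 642 in the 7 Tbr2+ ones, and Rian is at 0 throughout.

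Meg3 differed most. Its start region had 1617, 1575, 1874 and 1705 bases under peaks in the Tbr2- vehicle libraries and 135, 642 and 0 in the Tbr2+ ones. Under TSA it had 1577, 1458, 1415 and 1432 bases in the Tbr2- libraries and 0 in all 4 Tbr2+ libraries. The fractions did not overlap in either treatment. In vehicle 14.5% of genes with a covered base were lower in Tbr2+ nuclei without overlap and 4.12% higher, and under TSA 27.1% were lower and 0.47% higher. The mean difference of -1434 bases at Meg3 in vehicle was undercut by 0.134% of genes, and that of -1471 bases under TSA by 0.193%. The strongest peak within 1 kb of the Meg3 ends had a -log10 q of 19.5 to 35.8 over the 8 Tbr2- libraries. It had 2.23 and 4.13 in the 2 Tbr2+ vehicle libraries with a peak there.

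The peaks lay around the first Meg3 start, the one with the TATA match. From 2 kb before it to 4 kb after it they covered 1862 to 2680 bases in Tbr2- vehicle and 1876 to 2339 bases in Tbr2- TSA libraries. The second start, with the T-box matches and 1 CpG, was marked in fewer libraries and without such a split: a peak lay within 1 kb of it in 2 of 3 Tbr2+ vehicle, 1 of 4 Tbr2+ TSA, 3 of 4 Tbr2- vehicle and 2 of 4 Tbr2- TSA libraries. No library had a peak between Meg3 and Rian, 32.2 kb, or between Rian and Mirg, 73.3 kb. Rian had no covered base at either end in any of the 15 libraries, although its RNA was measured in all, and a peak lay inside its body in 1 of 3, 0 of 4, 3 of 4 and 2 of 4 libraries of the same groups in the same order.

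**Figure D4:**
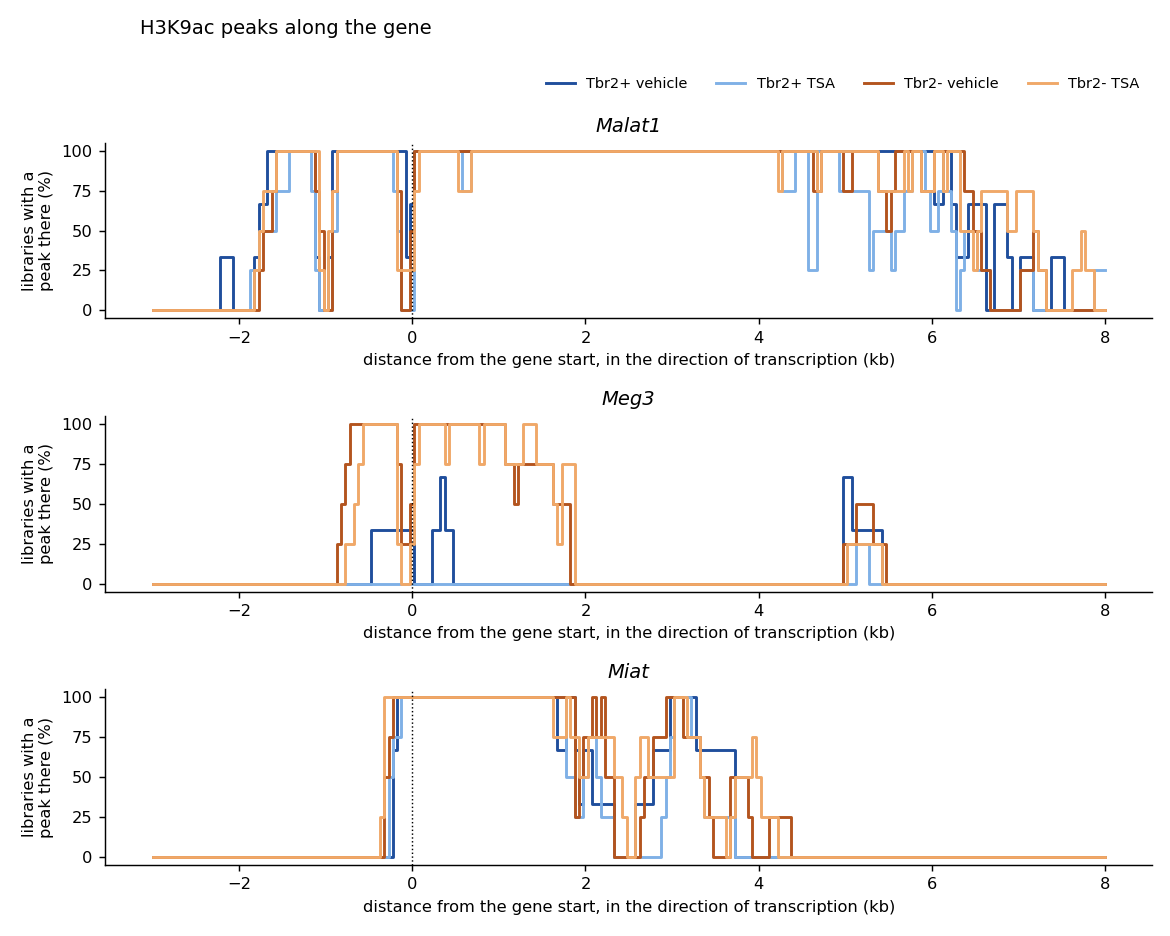
Share of the libraries of each group with an H3K9ac peak at each distance from the gene start, in kb in the direction of transcription, for Malat1, Meg3 and Miat. At 0.5 kb past the first Meg3 start 100% of the Tbr2- and 0% of the Tbr2+ libraries have a peak. Nearer to that start 2 of 3 Tbr2+ vehicle libraries have one. At 1 kb past the Malat1 and Miat starts every library of all 4 groups has a peak.

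At Mirg no peak touched the start. The peak that counted lay beyond its other end, and the gene body was uncovered in 14 of 15 libraries. This end had 428, 534 and 518 bases in Tbr2+ vehicle and 428, 463, 360 and 395 in Tbr2- vehicle libraries, which overlap, although the RNA was 11.5-fold lower in Tbr2+ nuclei. Under TSA it had 176, 410, 450 and 276 bases in Tbr2+ and 0, 167, 0 and 0 in Tbr2- libraries. It was thus higher in Tbr2+ nuclei under TSA, and lower under TSA than in vehicle in Tbr2- nuclei, where 3.03% of genes were lower and 0.766% higher without overlap. In Tbr2+ libraries the peak had a -log10 q of 9.72 to 16.3 in vehicle and 3.54 to 4.71 under TSA. The Tbr2- peaks were low: the single one in a Tbr2- TSA library had a -log10 q of 3.20, and the strongest in the 4 Tbr2- vehicle libraries had 3.83 to 9.35. With peaks of a -log10 q of at least 5 alone neither difference was seen, and the one between the fractions under TSA was not seen with a window of 500 bp.

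Malat1 stood out in another way: peaks covered a mean of 89.7% of its span over the 15 libraries, more than in 99.9% of 32951 genes of at least 2 kb, whose median was 1.01%. Its ends had 2474, 2632 and 2538 bases in Tbr2+ vehicle, 2021, 2016, 1989 and 2247 in Tbr2+ TSA, 2217, 2427, 2509 and 2407 in Tbr2- vehicle and 3196, 2733, 2820 and 2006 in Tbr2- TSA libraries. Between the fractions they overlapped in both treatments, but each overlap rested on 1 library. Without Tbr2- TSA replicate 4, which had the fewest peaks of its group (47835), the TSA libraries ran from 1989 to 2247 bases in Tbr2+ and from 2733 to 3196 in Tbr2- nuclei. In vehicle Malat1 was higher in Tbr2+ nuclei without Tbr2- replicate 3 or without Tbr2+ replicate 1, and also with a window of 500 bp. Under TSA it was lower in Tbr2+ nuclei with peaks of a -log10 q of at least 5 alone. In Tbr2+ nuclei Malat1 was lower under TSA without overlap, as were 29.5% of all genes, against 0.127% higher. Peaks also covered 1579 to 2578 bases of the 22.0 kb between Malat1 and Neat1 in every library.

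Neat1 was marked mainly at the end away from Malat1, with 600, 851 and 791 bases in Tbr2+ vehicle, 665, 226, 698 and 317 in Tbr2+ TSA, 1033, 1007, 968 and 880 in Tbr2- vehicle and 1192, 1066, 970 and 784 in Tbr2- TSA libraries. Of the 1066 bases, in Tbr2- TSA replicate 2, 187 lay at the end near Malat1. Neat1 was lower in Tbr2+ nuclei in both treatments, as its RNA was in vehicle. In vehicle this was not seen with a window of 500 bp or 2 kb, and under TSA not with peaks of a -log10 q of at least 5 alone. Miat had 1168, 1228 and 1244 bases in Tbr2+ vehicle, 1143, 1274, 1279 and 1213 in Tbr2+ TSA, 1601, 1503, 1327 and 1321 in Tbr2- vehicle and 1304, 1355, 1555 and 1748 in Tbr2- TSA libraries. It too was lower in Tbr2+ nuclei in both treatments, by a ratio of means of 0.844 in vehicle and 0.823 under TSA, beside 0.935 and 0.79 over all genes with a covered base, while its RNA was not called in vehicle. With a window of 2 kb neither difference was seen, nor the one in vehicle with peaks of a -log10 q of at least 5 alone. At its start alone the high-coordinate window held 1168 to 1244 bases in Tbr2+ vehicle and 1234 to 1327 bases in Tbr2- vehicle libraries, which overlap. Under TSA this window held 1143 to 1279 bases in Tbr2+ and 1304 to 1355 bases in Tbr2- libraries, without overlap. The share of all genes for this window alone was not counted. Further bases lay at the other end of the gene. There 2 of the 4 Tbr2- vehicle libraries had 367 and 223 bases and no Tbr2+ library had any. Tbr2- TSA replicates 3 and 4 had 226 and 416 bases there. With a window of 500 bp at both ends Miat stayed lower in Tbr2+ nuclei in both treatments.

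Counted over the 6 RNAs, H3K9ac was lower in Tbr2+ nuclei without overlap at 3 in vehicle (Neat1, Meg3, Miat), beside 14.5% of all genes, and at the same 3 under TSA, beside 27.1%. Mirg was higher under TSA, as were 0.47% of genes. The ratio of Miat under TSA, 0.823, lay near that over all genes. TSA gave 1 lower gene in each fraction, Malat1 in Tbr2+ nuclei beside 29.5% of genes and Mirg in Tbr2- nuclei beside 3.03%, and no higher one. Without Tbr2+ vehicle replicate 1, Malat1 and Mirg also stood higher in Tbr2+ vehicle nuclei, and Neat1 and Mirg lower under TSA in Tbr2+ nuclei. For TSA in Tbr2+ nuclei Mirg was also lower without TSA replicate 3 and Meg3 without vehicle replicate 3. For TSA in Tbr2- nuclei Meg3 was also lower without TSA replicate 1 or vehicle replicate 2, and Malat1 higher without TSA replicate 4.

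A stricter reading asked for a peak within 1 kb of a gene end in every library of a group and in none of the other. Only Meg3 under TSA met it, absent in Tbr2+ and present in Tbr2- nuclei, beside 2.23% of genes; 0.0184% met it the other way round. In vehicle 0.664% of genes met it as lower and 0.326% as higher in Tbr2+ nuclei. For TSA against vehicle it was met as lower and higher by 2.13% and 0.00455% in Tbr2+ and by 0.0808% and 0.034% in Tbr2- nuclei, and by none of the 6.

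Across the cluster, H3K9ac at neighbouring genes was read in the same way. Dlk1 had a gene-end peak in 4 of 4 Tbr2- vehicle and 4 of 4 Tbr2- TSA libraries and in none of the 7 Tbr2+ libraries. Begain had 1074 to 1126 bases in Tbr2- vehicle against 440 to 594 in Tbr2+ vehicle libraries. Rtl1 had no peak in any library, and Dio3 had one in 2 of 4 libraries of each Tbr2- group only. Between Mirg and Dio3 peaks covered 2284 to 2626 bases of 529.8 kb in Tbr2+ vehicle and 944 to 2483 bases in Tbr2- vehicle libraries, which overlap. Under TSA they covered 176 to 742 bases in Tbr2+ and 716 to 1387 bases in Tbr2- libraries, which overlap too. TSA and vehicle libraries did not overlap in Tbr2+ nuclei and did in Tbr2- nuclei. The Tbr2+ TSA lists also held fewer peaks in all (31823 to 40053 against 61487 to 82164 in vehicle), and the part of this was not tested.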

How the data were processed

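Raw read counts per gene were deposited by the authors for 10 RNA libraries; mm10 and SAMtools are named per the submitters' processing notes, while the sources used here name no aligner, counter or annotation. H3K9ac peaks were called with MACS 2.1.0.20140616 on each library against 1 input per group at a q threshold of 0.1, per the file headers. Of the deposited columns the peak positions and the −log10 q were used; the pileup signal and the fold enrichment ratio that the authors deposited were not, since separate calls share no scale. The 4 input libraries were not analysed here.

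Genes were filtered (filterByExpr), scaled (TMM) and tested with edgeR 4.0.16 (R 4.3.3) by the quasi-likelihood method, the 4 groups fitted together over the 10 libraries, and p-values were adjusted by Benjamini-Hochberg over 20078 genes with calls below 0.05. CPM use TMM-scaled totals of the genes tested. SEs were derived from each log2 fold change and its F statistic (ratio of the fold change to the root of F). The fit was tested on simulated data. Likeness used log2(CPM + 1) in genes of at least 10 mean CPM. The 6 RNAs, the gene lists and the rules were chosen with earlier results of these data known. Besides the 6 RNAs and Eomes, the text names up to 3 called genes of each list with the smallest adjusted p, and the 3 nearest genes of each RNA; members of short lists, Dlk1, Rtl1 and Dio3 among them, were named after their values were seen. No source says that same-numbered Tbr2+ and Tbr2- libraries are pairs, and the pairing was assumed from these data. Their deviations from group means correlated at 0.266 to 0.334 in vehicle and 0.33 under TSA over 10392 genes. Values for other numbers were negative. Deviations cancel within a group, so these negative values follow in part by arithmetic, and wholly under TSA with 2 libraries per group. Between vehicle and TSA same-numbered libraries correlated at -0.0863 to -0.0109. Alternatives were DESeq2 1.42.0, RLE scaling, no filter, fewer groups, totals without the 6 RNAs, replicate blocks, each library left out, and other windows and peak thresholds. Coordinates, promoters and microRNAs are from RefSeq tables of GRCm38.p6, the assembly of mm10.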

Additional observations from a re-analysis of the deposited data

Results flagged for a closer look

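Among 14 groups of 4 H3K9ac libraries in which the covered bases of a gene varied, 2 had a library set apart from the other 3, where chance gives about 1 group in 20. At Malat1 in Tbr2+ TSA nuclei, replicate 4 had 2247 bases under peaks at the gene ends and the others 1989 to 2021. At the far end of Mirg in Tbr2- TSA nuclei, replicate 2 had 167 bases and the others 0. Where the others tie, any covered base sets a library apart, so the rate of 1 in 20 does not apply to this group.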

How the results depend on the processing

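The count of the 6 RNAs called lower or higher between the fractions was 4 in vehicle and 3 under TSA. With 1 library left out it was 3 to 4 and 1 to 3. With the replicate block by assumed pair it was 4 and 4, the added call being Miat. With the replicate number as a block across all groups it stayed at 4, 3, 0, 0 and 0, a block that pairs nothing between treatments; it called 13 and 14 of all genes for TSA in Tbr2+ and Tbr2- nuclei against 0 and 236. The blocks changed no other call of the 6. For TSA in Tbr2- nuclei the count was 0, but 2 with DESeq2, 1 with only the 2 groups in the fit and 0 to 1 with a library left out. Counts over all genes moved most for TSA: 996 and 1983 with DESeq2 and 364 and 944 without the low-count filter, and 2974 against 1871 for the fractions under TSA with DESeq2, and 401 in Tbr2- nuclei with only 2 groups. With a library left out they ran from 683 to 1953 for the fractions under TSA, from 0 to 39 for TSA in Tbr2+ and from 0 to 677 in Tbr2- nuclei. The causes were not tested.

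Of 492 refits of single log2 fold changes, 467 kept direction and side of the threshold, 7 became and 9 ceased to be calls, and 9 turned sign, all among values that were not called and all with a library left out. With a library left out, Miat between the fractions in vehicle ran from -0.18 to 0.20, Malat1 between them under TSA from -0.17 to 0.97, Malat1 for TSA in Tbr2+ nuclei from -1.06 to 0.049, and the interaction of Malat1 from -0.40 to 0.72, of Neat1 from -0.99 to 1.03 and of Meg3 from -0.538 to 0.9996.

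For H3K9ac the counts without overlap were 3, 4, 1 and 1 in the order of the 4 comparisons. They were 1 in the first with a 2 kb window, 2 and 0 in the last 2 with peaks of a -log10 q of at least 5, and 0, 1, 0 and 0 by presence alone. With a library left out they ran from 3 to 5, 4 to 5, 1 to 3 and 1 to 2. With a window of 500 bp Malat1, higher, took the place of Neat1, lower, in the first. With peaks of a -log10 q of at least 5 Malat1, lower, took the place of Neat1 in the second, and Mirg was not counted. Meg3 was lower in Tbr2+ nuclei under every window and threshold tried, though in vehicle not by presence alone. H3K9ac was not tested and was not analysed in pairs. Few libraries and low counts of Neat1 and Mirg in Tbr2+ nuclei, down to 6 and 14 reads, limit what can be seen.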
